A study of Mus musculus with 12 samples.

Results

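The genes described here are 10 components of the Wnt signalling pathway in mouse liver cells: the ligands Wnt7a and Wnt7b, the R-spondin receptors Lgr4 and Lgr5, the membrane ubiquitin ligases Rnf43 and Znrf3, the feedback gene Axin2, the DNA-binding factors Tcf7l1 and Tcf7l2, and the transcription factor Tbx3. They were taken by symbol from a table of 53599 genes, in which all 10 were present and all 10 entered the tests, among 16210 genes with enough reads to test. The study sequenced bulk RNA from sorted liver cells in 4 groups of 3 libraries, and used the groups to follow hepatocytes as they take on features of bile duct cells. The early group was EGFP-positive and negative for the biliary surface proteins Cd24 and Epcam, the intermediate group was EGFP-positive and Cd24-positive but Epcam-negative, and the full group was positive for all 3. The comparison group, biliary epithelial cells (BEC), was EGFP-negative and Epcam-positive, the gate for resident duct cells.

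All 12 libraries came from mice labelled as wild type that had been injected with AAV8-TBG-Cre, in which the hepatocyte promoter TBG drives Cre recombinase, and that were fed DDC, a porphyrin-inducing diet that injures bile ducts, at 0.1% for 8 weeks starting 1 week after the virus. BEC therefore came from injured livers as well, and there was no uninjured group. The labels name no reporter allele, and they do not say which libraries came from separate animals, so the p-values measure the spread between these libraries, which may be partly technical. Total counts were 15112893 to 19731887 per library. Mitochondrial genes took 5.45 to 11.4% of counts in early, with the highest share in the second early library, and 2.20 to 4.75% in the other groups. Genes with at least 1 count numbered 19288 to 20015 in early and 21053 to 23249 elsewhere. The part of these differences in the comparisons with early was not tested.

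Marker genes followed the order of the gates. The summed level of 10 hepatocyte genes was 110795 to 116649 CPM (counts scaled to a library of fixed size) in early and 2513 to 3217 CPM in BEC, whereas 10 biliary genes summed to 984 to 1923 CPM in early and 14522 to 17694 CPM in BEC. The biliary genes include Epcam, whose protein was used for the gates, so their sum is not independent of the sort. Of 10 endothelial genes the sum was at most 33.9 CPM in any library, and of 10 stellate and fibroblast genes at most 330 CPM, in both cases highest in early. The sum of 10 macrophage genes was 25.9 to 29.0 CPM in early and 133 to 163 CPM in BEC. None of the B cell, T and NK cell and neutrophil genes on the lists had enough reads to test. The immunoglobulin genes Igkc and Igha, expressed by antibody-secreting cells and absent from the lists, did have enough; they are named after their values were seen. Igkc was at 0.162 to 0.999 CPM in early, 0.657 to 2.07 in intermediate, 4.28 to 17.1 in full and 15.5 to 45.0 in BEC, and Igha was at 0.273 to 1.90 CPM in early and 29.5 to 75.1 in BEC. Jchain, also tested, had a median of 0.243 CPM in early and 12.4 in BEC. Iglc2, Ighm and Mzb1 had too few reads to test. The medians of Iglc2 and Ighm in BEC were 0.481 and 0.385 CPM. Mzb1 went the other way, with a median of 0.454 CPM in early and 0 in BEC. The part of such cells in the results below was not tested. In bulk RNA a smaller share of expressing cells and less RNA per cell cannot be told apart, which applies to every difference below.

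Wnt ligands bind Frizzled receptors and the co-receptors Lrp5 and Lrp6, which stops a complex containing Axin and Apc from degrading β-catenin; β-catenin then enters the nucleus and activates genes through Tcf and Lef factors. Rnf43 and Znrf3 remove Frizzled from the cell surface, and R-spondins bound to Lgr4 or Lgr5 take those ligases away, so that the cell responds more strongly to Wnt. In the resting liver this signal is strongest in hepatocytes around the central vein, where Axin2, Lgr5, Rnf43, Znrf3 and Tbx3 are among the genes it is known to activate. Tcf7l2 is the main Tcf factor of hepatocytes, while Tcf7l1 acts mostly as a repressor.

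The sequences just upstream of the start site are shown for the feedback gene Axin2 and the receptor Lgr4, which both fell at the first step, and for Tcf7l2, which did not pass the test there. Under total counts alone, a scaling described below, Axin2 still fell, Lgr4 did not pass (0.13 on the log2 scale, adjusted p = 0.282) and Tcf7l2 rose (0.84, adjusted p = 4.40e-05). They are the 250 bases before a RefSeq start on the mouse build GRCm38.p6, a different build from that of the counts, and none overlaps an annotated exon. RefSeq promoter entries matched 6 of the 10 genes. Axin2 lies at chr11:108920099-108920348, Lgr4 at chr2:109917397-109917646 and the first of the Tcf7l2 windows at chr19:55741560-55741809, all on the plus strand. Capitals mark CAAAG, the reverse complement of CTTTG, the core of the Tcf and Lef recognition sequence.
Axin2: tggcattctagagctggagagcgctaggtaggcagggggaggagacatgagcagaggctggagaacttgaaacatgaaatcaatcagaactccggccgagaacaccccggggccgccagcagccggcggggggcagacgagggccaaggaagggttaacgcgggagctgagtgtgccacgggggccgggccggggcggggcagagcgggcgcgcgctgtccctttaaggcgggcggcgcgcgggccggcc
Lgr4: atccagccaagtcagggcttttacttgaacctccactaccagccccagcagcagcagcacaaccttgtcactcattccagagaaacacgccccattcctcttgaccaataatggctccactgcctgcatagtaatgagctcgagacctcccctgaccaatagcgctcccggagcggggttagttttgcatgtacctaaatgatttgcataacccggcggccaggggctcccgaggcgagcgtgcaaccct
Tcf7l2: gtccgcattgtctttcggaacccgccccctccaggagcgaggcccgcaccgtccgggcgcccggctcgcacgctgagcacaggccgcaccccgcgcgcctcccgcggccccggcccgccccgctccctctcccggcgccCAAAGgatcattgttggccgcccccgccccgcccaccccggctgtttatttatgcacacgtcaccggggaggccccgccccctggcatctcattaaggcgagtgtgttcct
The longer forms CTTTGAT and CTTTGAA, searched on both strands, were in none of these 3 windows, and 7.48% of 32851 such windows across the genome hold at least one of them. The core CTTTG was in the Tcf7l2 window and in neither of the others, and 48.6% of all windows hold it. Among windows not shown, that of Tcf7l1 and the other of Tcf7l2 also hold the core, and those of Wnt7a and Rnf43 do not. The GC content was 69.2% for Axin2, 55.6% for Lgr4 and 72.8% for Tcf7l2, against a median of 52.4% over all windows. A match describes letters in a window and is not a binding site, and the lack of a match says nothing of sequence outside the window.

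The 10 genes moved at different points along the series. From early to intermediate, Wnt7a and Tcf7l1 rose and Lgr4, Lgr5, Axin2 and Tbx3 fell, which is 6 of 10 against 54.4% of all genes tested (edgeR quasi-likelihood test, Benjamini-Hochberg adjusted p under 0.05 over all 16210 genes). The 2 that rose stand against 28.7% of all genes higher, and the 4 that fell against 25.7% lower; under total counts alone 5 were higher and 3 lower, against 59.4% and 10% of all genes. From intermediate to full, Wnt7a rose again, Wnt7b appeared, and Rnf43 and Tbx3 fell, or 4 of 10 against 40.7%, with 2 higher against 20.8% and 2 lower against 19.8% (4 and 1 under total counts alone, against 32.3% and 12.2%). BEC was called different from full in Wnt7b, which was higher, and Rnf43, which was lower, or 2 of 10 against 21.3%, with 1 in each direction against 10.7% higher and 10.6% lower. The libraries of the 2 groups did not overlap for 6 of the 10 at the first step, 6 at the second and 4 at the last, against 58.7%, 55% and 39.6% of all genes. The share called at each step lies near that of all genes.

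**Figure D1:**
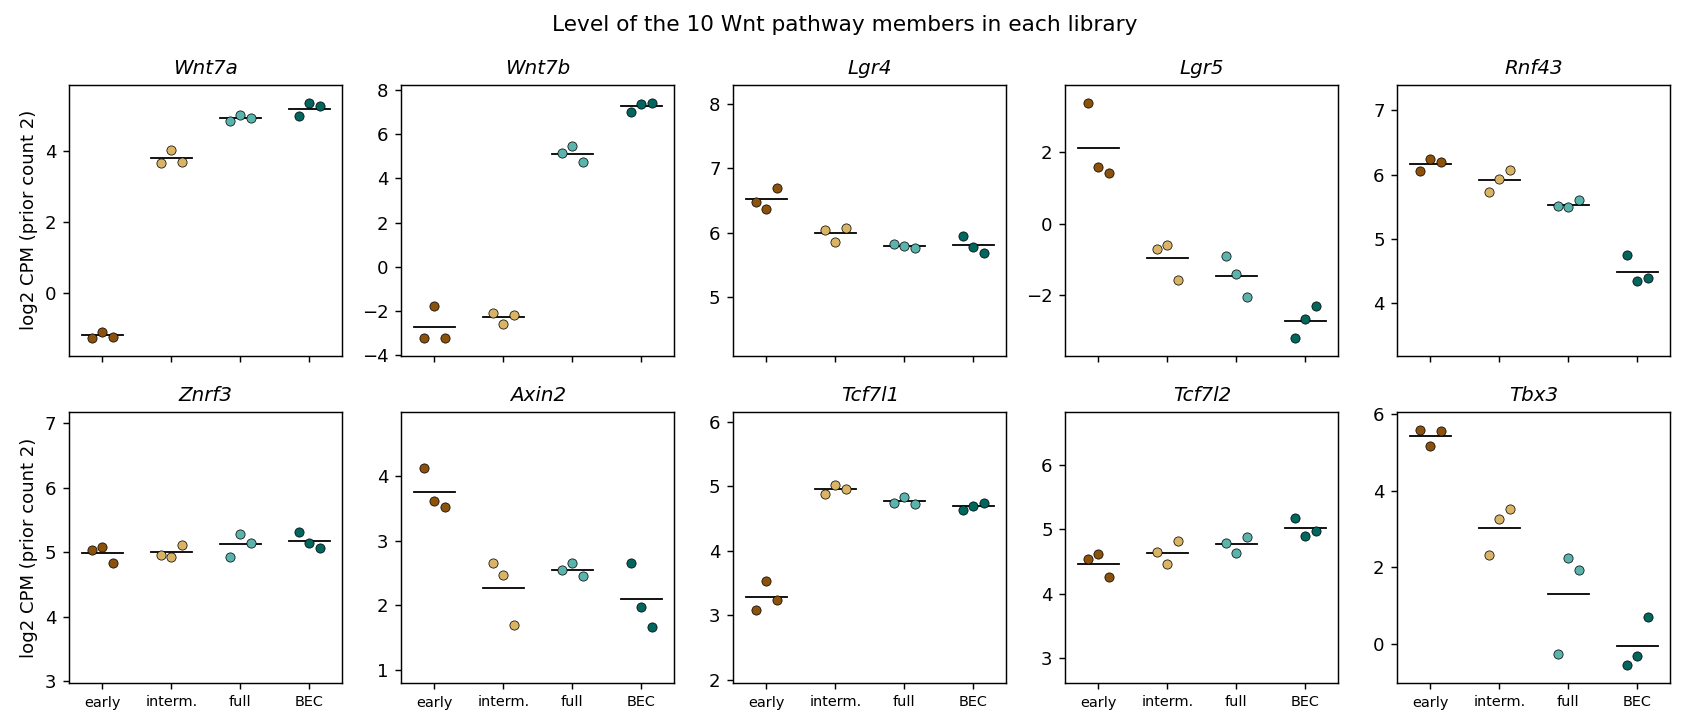
Level of each of the 10 genes in each of the 12 libraries, as log2 CPM with a prior count of 2 (y axis, its span differing between panels), by group (x axis); points are libraries and bars are group means. Wnt7a is lowest in early, Wnt7b is near 0 counts in early and intermediate, Tbx3 and Lgr5 are highest in early, and Znrf3 stays between 28.6 and 39.5 CPM.

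Levels below are CPM scaled by TMM, a method that sets library sizes so that most genes do not change. The TMM factors were 0.652 to 0.672 in early and 1.03 to 1.22 elsewhere, so the choice of scaling moves every comparison with early. Dividing by total counts alone moved the median of all 16210 log2 fold changes from 0.06 to 0.72 at the first step, and from 0.14 to 1.005 in full against early. Changes are therefore given relative to most genes, and a named change at the first step whose call was lost under total counts alone is marked as such.

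Wnt7a, a ligand of the canonical branch, was close to absent in early and present in each of the other groups. It was at 0.316, 0.363 and 0.324 CPM in the 3 early libraries, 12.6, 16.1 and 12.8 CPM in intermediate, 28.7, 32.1 and 30.2 CPM in full, and 31.1, 40.3 and 38.0 CPM in BEC. No library overlapped between early, intermediate and full, while the lowest BEC library lay within the range of full. The 12 counts in the early group became 723 in intermediate, a ratio of 41.8 after scaling (exact 95% interval 23.8 to 81.4, counting error only). The log2 difference was 5.35 ± 0.23 (SE, n = 3 per group; edgeR adjusted p = 1.03e-09) at this step and 1.13 ± 0.13 (adjusted p = 1.14e-05) from intermediate to full. BEC and full differed by 0.27 ± 0.12, which did not pass the test (edgeR adjusted p = 0.159).

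Wnt7b, the close relative of Wnt7a, appeared 1 step later. Early libraries held 0, 2 and 0 counts and intermediate libraries 2, 1 and 2, all at or below the floor of 3 counts that was taken as detection. Full libraries were at 35.0, 44.0 and 26.8 CPM and BEC libraries at 127, 165 and 170 CPM. The gap between the Epcam-negative and Epcam-positive groups held in every library. With 5 counts in intermediate and 2426 in full the scaled ratio was 365 (exact 95% interval 156 to 1126; edgeR adjusted p = 1.22e-08). BEC exceeded full by 2.13 ± 0.18 on the log2 scale (edgeR adjusted p = 2.06e-06, n = 3 per group), and the 9913 counts there give a ratio of 4.38 (4.19 to 4.58). Both intervals cover counting error only and leave out the spread between libraries. The annotated exons of Wnt7b overlap those of an antisense gene, AU022754, over 6.62% of their length; AU022754 had 0 counts in early and intermediate, 81 in full and 210 in BEC. The strand setting of the counting is not known, and the part of antisense reads in the Wnt7b counts was not tested.

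The 2 ligands thus changed their proportion within a library, a value that does not depend on library scaling. Wnt7b counts were 0.003 to 0.010 of the Wnt7a counts in intermediate, 0.887 to 1.37 in full and 4.08 to 4.47 in BEC. These 3 ranges did not overlap; early, with 0 to 2 Wnt7b counts per library, is left out. Corrected for exon length, Wnt7b was the most abundant of the 10 in BEC at 31.4 CPM per kb of exon, above Wnt7a at 11.5 and Lgr4 at 9.49. The biliary marker sum, at 9326 to 12204 CPM in intermediate and 11764 to 14984 CPM in full, and the macrophage sum, at 30.8 to 41.1 and 66.1 to 97.0 CPM, were also higher at each later step in their medians; their part in the rise of the ligands was not tested. Exon lengths come from an annotation of the earlier build and are approximate.

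Among the R-spondin receptors, Lgr4 was well expressed in every group and Lgr5 was low everywhere. Lgr4 stood at 89.2, 82.7 and 104 CPM in early, 65.7, 57.5 and 67.4 CPM in intermediate, 56.7, 55.1 and 53.9 CPM in full, and 61.4, 54.9 and 51.3 CPM in BEC. The early libraries lay above all others, and the remaining groups lay close together. Lgr4 fell by 0.53 ± 0.10 on the log2 scale from early to intermediate (edgeR adjusted p = 0.000602, n = 3 per group), but under total counts alone the difference was 0.13 in the other direction and did not pass (adjusted p = 0.282). Later steps did not pass the test, with adjusted p = 0.135 and 0.943.

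Lgr5, which marks cells with strong Wnt responses in many epithelia, was at 10.4, 2.91 and 2.59 CPM in early and between 0.226 and 0.547 CPM in intermediate. In full it was at 0.131 to 0.425 CPM, and the 3 BEC libraries held 0, 1 and 2 counts. Every early library was above every other library, and the first early library was more than 3 times the others. The 195 counts in early against 22 in intermediate gave a scaled ratio of 12.8 (exact 95% interval 8.19 to 20.8, counting error only). Lgr5 fell by 3.62 ± 0.64 on the log2 scale (edgeR adjusted p = 0.000263, n = 3 per group). The later steps did not pass (adjusted p = 0.552 and 0.135), although BEC was lower than full with no low-count filter (-2.43, adjusted p = 0.0462) and without the first early library (-2.41, adjusted p = 0.0482). Without that library the difference at the first step was -2.67 (adjusted p = 0.00132). The first early library also had the highest levels of the pericentral genes Glul, at 153 CPM against 84.5 and 84.7, and Oat, at 123 against 60.3 and 57.6, and the lowest stellate and fibroblast sum, 113 against 287 and 330 CPM; their part in the result was not tested.

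The ligases Rnf43 and Znrf3, which do the same work on Frizzled, behaved differently from each other. Rnf43 was at 66.4, 75.1 and 73.0 CPM in early, 53.0, 60.7 and 67.4 CPM in intermediate, 45.4, 44.8 and 48.5 CPM in full, and 26.7, 20.2 and 20.9 CPM in BEC. Early and intermediate overlapped, and BEC lay below all other groups. Znrf3 ranged from 28.6 to 39.5 CPM over all 12 libraries, with every pair of groups next to each other overlapping. The F test among the 4 groups passed for 9 of the 10 genes, against 75.6% of all genes, and for 8 under total counts alone, against 84.4%. Znrf3 was the one that did not pass (edgeR adjusted p = 0.346), although under total counts alone it was higher than in early in each of the other groups, by 0.68 in intermediate, and higher in full (0.33) and BEC (0.38) than in intermediate.

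From full to BEC Rnf43 fell by 1.03 ± 0.12 on the log2 scale (edgeR adjusted p = 2.94e-05, n = 3 per group). The step from intermediate to full was smaller, -0.38 ± 0.12 (adjusted p = 0.0174). It was lost under total counts alone (-0.18, adjusted p = 0.219) and when the third intermediate library (adjusted p = 0.0771), the first full library (0.0512) or the second full library (0.0638) was left out. From early to intermediate Rnf43 did not pass the test (-0.24 ± 0.12, adjusted p = 0.0933). It passed there with median-of-ratios factors (-0.30, adjusted p = 0.0440) and without the third intermediate library (-0.33, adjusted p = 0.0453), whereas under total counts alone it was higher in intermediate by 0.42 (adjusted p = 0.00536). The ratio of Rnf43 to Znrf3 counts within a library, which is free of scaling but not corrected for gene length, was 2.04 to 2.56 in early, 1.72 to 1.99 in intermediate, 1.15 to 1.496 in full and 0.572 to 0.676 in BEC. The 4 ranges did not overlap and stood in that order, so Rnf43 counts exceeded Znrf3 counts in all 9 EGFP-positive libraries and were below them in all 3 BEC libraries. With 3 libraries per group an exact 2-sided permutation test cannot give a p below 0.1 for such a step.

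**Figure D2:**
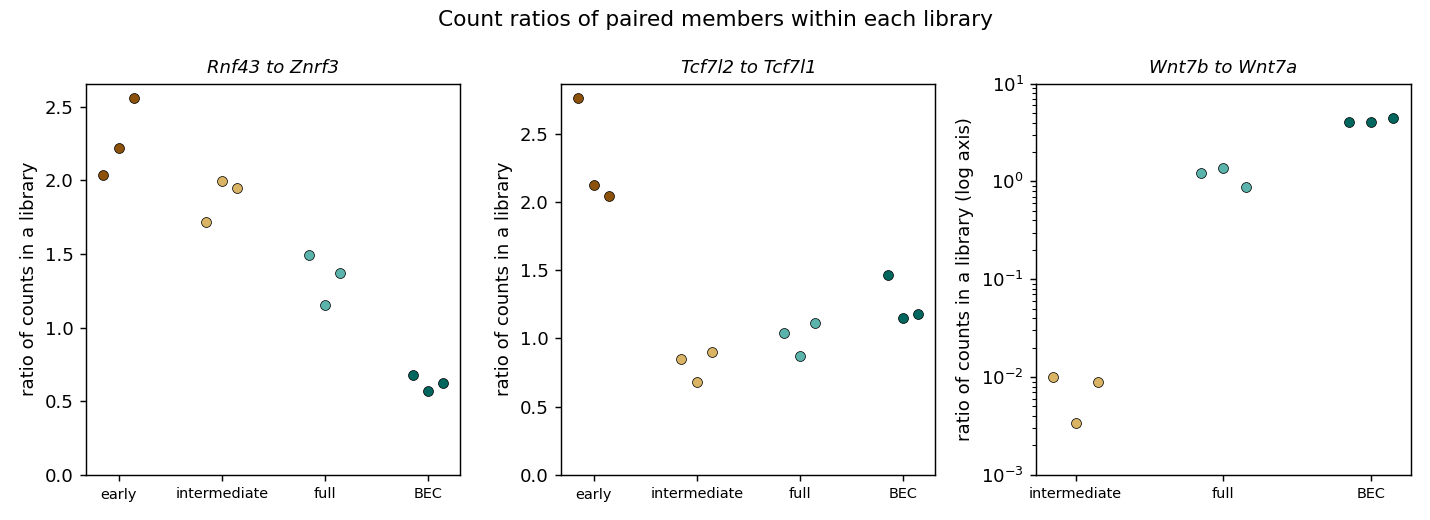
Ratio of counts within each library (y axis, linear from 0 in the first panels and log in the last) for Rnf43 to Znrf3, Tcf7l2 to Tcf7l1 and Wnt7b to Wnt7a, by group (x axis); each point is a library, and early is left out of the last panel because it holds too few counts. The Rnf43 to Znrf3 ratio falls from 2.04 to 2.56 in early to 0.572 to 0.676 in BEC.

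Axin2, a direct target and a brake of the pathway, was highest in early, at 17.4, 12.2 and 11.4 CPM. It was at 6.22, 5.42 and 3.11 CPM in intermediate, 5.74, 6.19 and 5.37 CPM in full and 6.21, 3.82 and 3.06 CPM in BEC. The early libraries did not overlap the others, and the other 3 groups overlapped one another. Axin2 fell by 1.48 ± 0.29 on the log2 scale from early to intermediate (edgeR adjusted p = 0.000694, n = 3 per group), and by 0.81 under total counts alone (adjusted p = 0.0243). In full against early the difference of -1.24 (adjusted p = 0.00135) did not pass under total counts alone (-0.37, adjusted p = 0.235). The later steps were not called, with edgeR adjusted p = 0.559 and 0.400. Exons of Axin2 overlap the antisense gene Gm11670 over 3.796% of their length, and Gm11670 had at most 7 counts in any group.

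Tcf7l1 rose at the first step, where Tcf7l2 did not pass the test, and the ratio of their counts changed. Tcf7l1 was at 8.38, 11.4 and 9.30 CPM in early, 29.4, 32.2 and 31.1 CPM in intermediate, 26.5, 28.5 and 26.3 CPM in full and 24.7, 25.7 and 26.6 CPM in BEC. The early libraries lay below all others. The rise was 1.67 ± 0.12 on the log2 scale, or 3.18-fold (edgeR adjusted p = 7.41e-08, n = 3 per group); the later steps did not pass, with adjusted p = 0.188 and 0.703. Exons of Tcf7l1 overlap the antisense gene Gm15401 over 4.56% of their length.

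Tcf7l2 ranged from 19.0 CPM in an early library to 36.2 CPM in a BEC library. None of the 3 consecutive steps passed the test (edgeR adjusted p = 0.293, 0.462 and 0.205), but BEC was above early by 0.55 on the log2 scale (adjusted p = 0.00175), with all 3 BEC libraries above all early ones. Under total counts alone Tcf7l2 also rose at the first 2 steps, by 0.84 and 0.33. Within a library, Tcf7l2 counts were 2.04 to 2.76 times those of Tcf7l1 in early and 0.679 to 0.902 times in intermediate; in full the ratio was 0.871 to 1.12 and in BEC 1.15 to 1.47. The early ratios lay above all others, and only intermediate and full overlapped.

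Tbx3, a T-box factor and a Wnt target of pericentral hepatocytes, fell at each of the first 2 steps. It was at 47.4, 36.0 and 46.7 CPM in early, 4.84, 9.47 and 11.4 CPM in intermediate, 0.722, 4.59 and 3.71 CPM in full and 0.577, 0.698 and 1.51 CPM in BEC. The groups did not overlap up to full, and the first full library lay within the range of BEC. The drop from early to intermediate was -2.33 ± 0.43 on the log2 scale (edgeR adjusted p = 0.000405, n = 3 per group), or 5.06-fold lower in intermediate. The drop from intermediate to full was -1.52 ± 0.46 (adjusted p = 0.0177) and was lost in DESeq2 (adjusted p = 0.0535) and without the second (0.0536) or the third (0.0718) intermediate library. BEC lay below full by 1.68 ± 0.57, just outside the threshold (edgeR adjusted p = 0.0531). With the replicate number as a block this last difference passed (adjusted p = 0.0248), and with 1 library of either group left out the adjusted p ran from 0.0026, without the first full library, to 0.221, without the second.

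**Figure D3:**
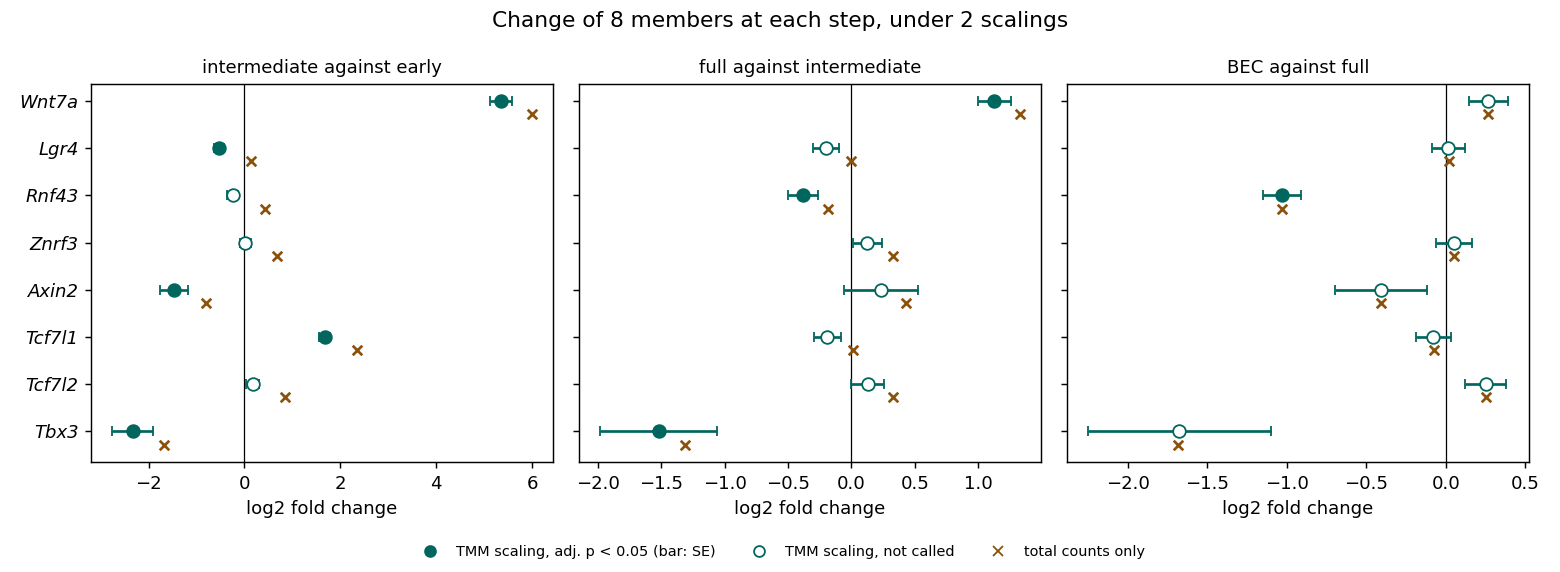
Log2 fold change with its SE (x axis) of 8 of the 10 genes at the 3 consecutive steps, with TMM scaling and with total counts alone; Wnt7b and Lgr5 are left out because some of their groups are at the floor. Wnt7a and Tcf7l1 are higher and Tbx3 and Axin2 lower at the first step under both scalings, while Lgr4 and Rnf43 change sign there.

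Set against early, which is shared by both comparisons, full had 8 of the 10 genes called, against 71.2% of all genes. Of these, 3 were higher, against 39.1%, and 5 lower, against 32.1%. BEC had 9 called against 73.1%, with 4 higher against 40% and 5 lower against 33% (5 and 4 under total counts alone, against 65.8% and 16.2%). Tcf7l2 was the one added in BEC, and its adjusted p in full against early was 0.0543. It passed there as well under 7 alternatives, among them total counts alone (1.17, adjusted p = 9.96e-07), and in the other 6 the adjusted p was 0.0411 to 0.0494. The lower genes were Lgr4, Lgr5, Rnf43, Axin2 and Tbx3 in both comparisons. Under total counts alone Lgr4 did not pass in either (0.13, adjusted p = 0.263 in full and 0.15, adjusted p = 0.204 in BEC), nor did Rnf43 (0.24, adjusted p = 0.0723) and Axin2 in full. In each comparison the libraries of 9 of the 10 genes did not overlap, against 74.4% of all genes in full and 74.6% in BEC. With total counts alone the split in full against early became 5 higher and 2 lower, against 66.4% and 14.8% of all genes. Between BEC and intermediate 6 of the 10 were called, against 52.4% of all genes. Wnt7a, Wnt7b and Tcf7l2 were higher in BEC, against 26.3% of all genes, and Lgr5, Rnf43 and Tbx3 lower, against 26.2% (4 and 3 under total counts alone, against 36% and 18.1%), while 7 of the 10 did not overlap, against 61%. The Lgr5 call was lost without replicate 1 or 2 of either group, and the Tcf7l2 call without intermediate replicate 1 or 2 or BEC replicate 1. Corrected for exon length, the leading genes among the 10 in early were Lgr4 at 15.6, Rnf43 at 10.9 and Tbx3 at 6.55 CPM per kb.

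The genes whose log2 levels followed each of the 10 most closely over the 12 libraries were found among 10921 genes (10922 for Lgr5) by Pearson correlation, as a description, since the libraries share groups and scaling. Wnt7a was closest to Zdhhc1 (r = 0.998), Cavin1 and Itgb8, an integrin subunit. Wnt7b was closest to Grhl2, a transcription factor of epithelial cells (r = 0.996), Fam174b and the chloride channel Ano1. Like Wnt7b, Grhl2 was at 0 to 0.0209 CPM on average in early and intermediate, 16.3 CPM in full and 68.6 CPM in BEC. Rnf43 was closest to Thpo, which encodes thrombopoietin (r = 0.987), Antxr2 and Kynu, an enzyme of tryptophan breakdown, and Thpo was at 26.8 CPM in early and 2.38 CPM in BEC. Tcf7l1 was closest to Fads3 (r = 0.990), Marcksl1 and Cav1, and Tbx3 to Errfi1 (r = 0.980), Kptn and Afm. Lgr4 was closest to Tut7 (r = 0.985), Ccny and Abcd3, and Lgr5 to Nudt18 (r = 0.987), Shfl and Yif1b. Tcf7l2 was closest to Lztfl1 (r = 0.950), Usp3 and 5530601H04Rik, and Axin2 to Tgds (r = 0.933), Ube2q1 and Kcmf1. The matches were weakest for Znrf3, whose closest genes were Clock (r = 0.845), Smg1 and Enpp1.

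A further 95 Wnt pathway genes, chosen with earlier results of these data known, were examined by role. Their shares describe the list and are no test of the pathway. Of the 95 genes, 73 had enough reads to test. At the first step 58 of them changed, against 54.4% of all genes, 42 higher and 16 lower, against 28.7% and 25.7% (52 and 10 under total counts alone, against 59.4% and 10%), with a median log2 fold change of 0.55 against 0.06 for all genes. From intermediate to full 38 changed, against 40.7% of all genes, with 29 higher against 20.8% and 9 lower against 19.8% (41 and 7 under total counts alone, against 32.3% and 12.2%), and a median of 0.31 against 0.01. Between full and BEC 22 changed, against 21.3%, with 13 higher in BEC against 10.7% and 9 lower against 10.6%, and a median of 0.08 against 0.005. With the replicate number as a block 29 changed there, with 15 higher against 12.6% and 14 lower against 12.6%. The counts by role below, all at the first step, stand against the same 28.7% higher and 25.7% lower, and those under total counts alone against 59.4% and 10%.

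Among 10 tested ligands, 7 rose and 1 fell from early to intermediate, under both scalings. Wnt4 had the highest mean CPM of them, at 7.15 ± 1.56 CPM in early (SD, n = 3), 88.9 ± 12.9 in intermediate, 65.3 ± 13.7 in full and 65.1 ± 10.1 in BEC, with a first rise of 3.63 on the log2 scale (edgeR adjusted p = 1.17e-08). Wnt10a was at or below the floor in early, 3.68 ± 1.87 CPM in intermediate and 37.9 ± 11.2 in full (adjusted p = 2.44e-06 for that step). Wnt10b, Wnt11 and Wnt16, also among the 7 that rose, were at or below the floor in every early library. They reached only 0.261, 0.318 and 0.689 CPM on average in intermediate, and are named here after their values were seen. Wnt5b, a ligand of the branch without β-catenin, was the one that fell, from 17.8 ± 0.72 to 6.12 ± 0.68 CPM (adjusted p = 3.54e-06). Wls, which carries Wnt proteins to the cell surface, was at 7.37, 27.5, 74.2 and 123 CPM on average in early, intermediate, full and BEC and rose at all 3 steps (edgeR adjusted p = 2.75e-05, 0.000176 and 0.0263). None of the 4 R-spondin genes, the ligands of Lgr4 and Lgr5, had enough reads to test, and Rspo2 and Rspo4 had 0 counts in all 12 libraries.

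Among 17 tested receptors, 11 rose and 3 fell at the first step, and under total counts alone 14 rose and none fell. The co-receptor Lrp6 went from 123 ± 7.82 to 171 ± 20.3 CPM (edgeR adjusted p = 0.00193). Fzd4 fell from 51.1 ± 3.69 to 33.2 ± 2.69 CPM (adjusted p = 0.000124), and the other falls were in Fzd1 (-0.60) and Lrp5 (-0.45). All 3 were lost under total counts alone, with differences of 0.04, 0.06 and 0.22 in the other direction (adjusted p = 0.724, 0.764 and 0.136). Fzd1 and Lrp5 are named here after their values were seen. Fzd9 was at 0 counts in early and 2.08 ± 0.47 CPM in full. In intermediate it was at 0.296 CPM on average, with 2 of 3 libraries at or below the floor. Fzd2, which also rose at the first step, was at or below the floor in early and at 0.455 CPM on average in intermediate. It is named here after its values were seen. Adgra2 (Gpr124), part of the receptor that reads Wnt7a and Wnt7b in brain endothelium, rose from 2.59 ± 1.01 to 11.97 ± 2.38 CPM at the first step (adjusted p = 4.59e-05), and its partner Reck went from 1.17 ± 0.79 to 4.78 ± 0.67 CPM (adjusted p = 0.000215); Reck is named here after its values were seen. Adgra2 then went to 7.16 ± 2.20 CPM in full (adjusted p = 0.0482, lost under 12 of 19 alternatives) and was 1.85 ± 0.29 CPM in BEC.

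Secreted inhibitors moved in both directions, with 1 of 6 tested genes higher and 1 lower at the first step (3 and 1 under total counts alone). Notum, an enzyme that inactivates Wnt proteins and a Wnt target, was at 21.3 ± 4.19 CPM in early and fell to 2.23 ± 0.59 at the first step (edgeR adjusted p = 2.66e-07) and 0.437 ± 0.124 at the second (adjusted p = 8.40e-05). Dkk2 was at 0 counts in early, at the floor in intermediate, 3.65 ± 1.16 CPM in full and 20.7 ± 3.91 CPM in BEC, where it was higher than in full by 2.50 on the log2 scale (adjusted p = 4.54e-05). Dkk3 rose from 2.01 ± 0.23 CPM in intermediate to 10.2 ± 0.83 in full (adjusted p = 4.01e-05).

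Of 15 tested genes of signal transduction and the destruction complex, 12 rose and 1 fell at the first step (14 and 0 under total counts alone). Ctnnb1, which encodes β-catenin, was at 423 ± 51.2 CPM in early and rose at each step, to 758 ± 18.2, then 1025 ± 46.7 and in BEC 1281 ± 57.7 CPM (edgeR adjusted p = 1.14e-05, 0.00366 and 0.0373 for the 3 steps). Apc2 was at or below the floor in early and rose to 2.48 ± 1.09 and then 7.36 ± 1.92 CPM (adjusted p = 3.13e-05 and 0.00207). Dvl1 went down from 195 ± 3.79 to 120 ± 7.60 CPM (adjusted p = 1.39e-05), a step that was lost under total counts alone (-0.03, adjusted p = 0.744), and further to 88.9 ± 3.64 CPM in full (adjusted p = 0.00125). Among 10 nuclear factors, 6 rose and 1 fell (9 and 0 under total counts alone), with Pygo1 at 0.360, 7.24, 26.7 and 21.0 CPM on average from early to BEC. Tle1, a co-repressor, was the one that fell, from 107 ± 12.5 to 70.6 ± 12.4 CPM (edgeR adjusted p = 0.00501), but was 0.07 higher under total counts alone (adjusted p = 0.728).

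Of 8 pericentral hepatocyte targets none rose and 7 fell at the first step (6 under total counts alone, without Glul), beside the fall in the hepatocyte marker sum to 19345 to 25047 CPM in intermediate; the part of hepatocyte content in these falls, and in those of Tbx3, Axin2 and Lgr5, was not tested. Cyp2e1 went from 1092 ± 182 to 74.3 ± 7.09 CPM (edgeR adjusted p = 6.49e-09) and Lect2 from 79.5 ± 15.3 to 14.4 ± 1.39 CPM (adjusted p = 4.64e-07). Glul, the glutamine synthetase of the innermost pericentral hepatocytes, fell from 107 ± 39.6 to 67.5 ± 8.77 CPM (adjusted p = 0.00779), a step that was lost under total counts alone (-0.0029, adjusted p = 0.996), and was 128 ± 8.69 CPM in BEC. Slc1a2, a glutamate transporter, fell from 14.7 ± 10.2 to 2.43 ± 0.998 CPM (adjusted p = 0.000248) and was at 24.5 ± 4.25 CPM in BEC. Glul and Oat are named here after their values were seen.

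Among 5 general targets 3 rose and 2 fell at the first step, under both scalings. Cd44 rose from 43.7 ± 19.1 to 255 ± 99.0 CPM (edgeR adjusted p = 8.32e-06) and Myc from 52.2 ± 9.78 to 98.6 ± 31.8 CPM (adjusted p = 0.0116). Ccnd1, which encodes cyclin D1, fell from 151 ± 27.6 to 74.4 ± 8.20 CPM (adjusted p = 2.08e-05) and then rose to 234 ± 20.9 in full (adjusted p = 6.89e-07) and 392 ± 27.4 in BEC (adjusted p = 0.000917). Sp5 was low throughout, at 0.760 ± 0.374 CPM in early and 0.159 ± 0.099 in intermediate, where 2 of 3 libraries were at the floor (adjusted p = 0.00542), and higher again in BEC than in full (adjusted p = 0.0313).

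Some genes of the longer list were highest in the middle of the series, a pattern looked for after the data were seen. In full, 6 of 73 tested genes were above both early and BEC (edgeR adjusted p under 0.05 on both sides), against 4.12% of all genes, and in intermediate 6 of 73, against 3.39%. Lgr6, the remaining R-spondin receptor of the family, was at or below the floor in early, at 1.06 ± 0.83 CPM in intermediate (SD, n = 3), 26.6 ± 6.60 in full and 1.41 ± 1.24 in BEC; it rose by 4.67 on the log2 scale from intermediate to full (edgeR adjusted p = 1.65e-05) and was lower in BEC than in full by 4.23 (5.18e-05). The lowest full library was at 19.7 CPM and the highest BEC library at 2.79 CPM. Wnt10b was at 2.06 ± 0.06 CPM in full and 0.251 ± 0.125 in BEC, and the secreted inhibitor Sfrp4 at 3.12 ± 0.19 and 0.281 ± 0.095. Fzd10, Adgra2 and Tle4 completed the list for full.

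In intermediate the genes were Wnt4, Wnt16, Fzd10, Adgra2, Sfrp4 and Myc. Myc was at 98.6 ± 31.8 CPM there and 34.3 ± 5.19 CPM in BEC, and Adgra2 at 11.97 ± 2.38 and 1.85 ± 0.29 CPM. The counts ranged from 3 to 10 in full and from 2 to 7 in intermediate over the alternatives. The lowest values, 3 and 2, came with the filter at a mean of 50 counts, under which fewer genes were tested.

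**Figure D4:**
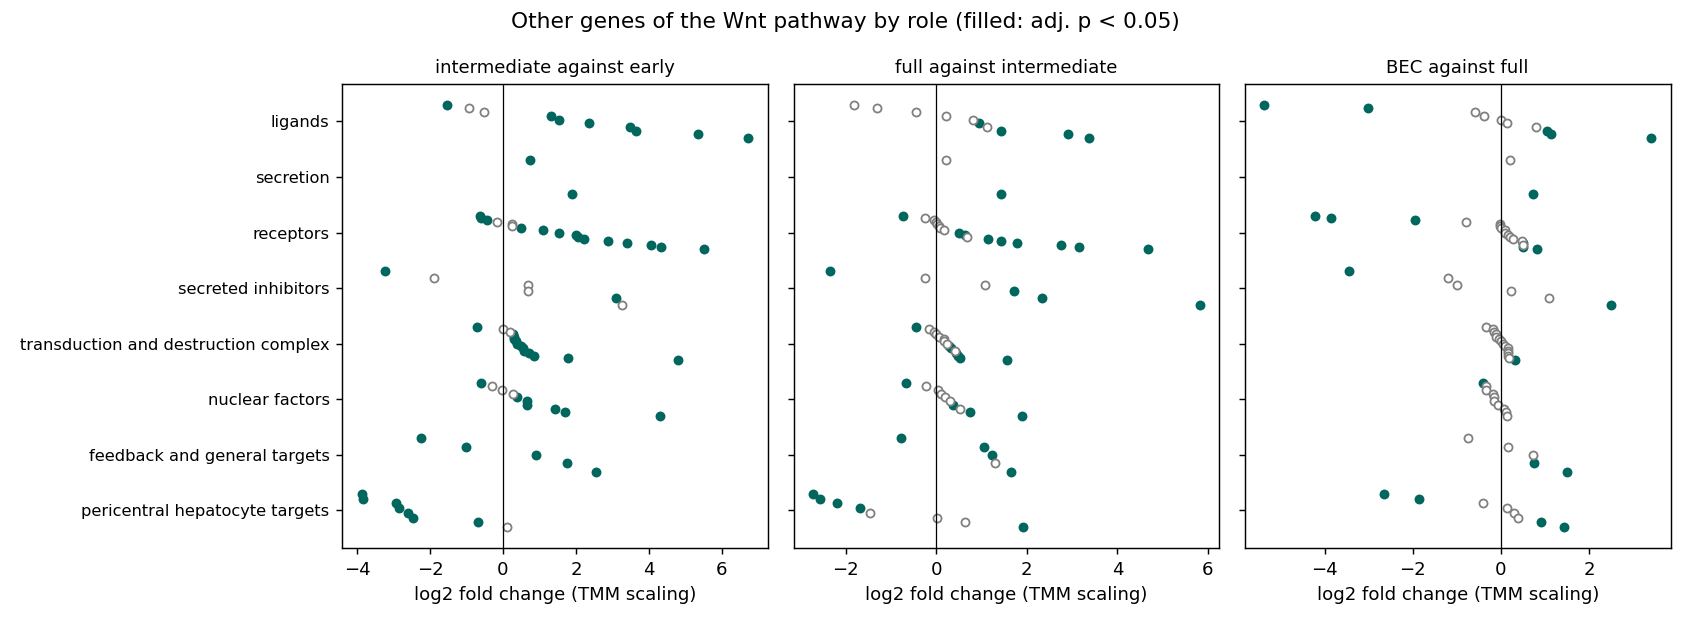
Log2 fold change (x axis) of the other Wnt pathway genes tested, by role (y axis), at the 3 consecutive steps; each point is a gene, filled where the edgeR adjusted p was under 0.05. At the first step most ligands, receptors and transduction genes lie to the right of 0 and 7 of 8 pericentral targets fell, 6 of 8 under total counts alone.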

How the data were processed

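RNA from 12 libraries of sorted mouse liver cells was analysed from the deposited table of raw counts per gene. Per the submitters' processing notes, the authors used STAR 2.7.10b, featureCounts 2.0.1, DESeq2 and the build GRCm39; annotation, strand setting and the treatment of reads with several matches are not given in the sources used here. A deposited table of normalised values was not used. Group and replicate number came from the sample titles.

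Genes were filtered with filterByExpr, scaled by TMM and tested in edgeR 4.0.16 (quasi-likelihood, all 12 libraries in 1 fit, R 4.3.3), with Benjamini-Hochberg adjustment over 16210 genes and a threshold of 0.05. All 6 pairwise comparisons and an F test among the groups were made. The procedure was tested on simulated counts in which few genes changed and as many rose as fell. That test does not cover the choice of scaling, which moves the comparisons with early. CPM values use TMM library sizes, and 3 counts per library were taken as the floor, equal to 0.127 to 0.273 CPM; intervals cover counting error only. The common biological coefficient of variation was 14.8%. Alternatives were DESeq2 1.42.0, median-of-ratios factors, total counts alone, other low-count filters, only the 6 libraries compared, a replicate block, and leaving out each library.

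The members and lists were chosen with earlier results of these data known. Beside the members, the text names from each role the tested gene with the highest mean CPM and the called genes with the largest change in each direction at the first 2 steps and in BEC against early, and for each member the 3 genes with the highest correlation among those with at least 10 CPM in a group. Libraries with the same number deviated together in the 3 consecutive comparisons (correlations of deviations 0.121 to 0.293, 0.137 to 0.322 and 0.170 to 0.257). The number was used as a block in an alternative only, and the main tests treated the libraries as unpaired. A pairing by number rests on these data, since the labels do not say what the number marks. In the other 3 comparisons the correlations were 0.0442 to 0.145 (BEC against early), 0.0839 to 0.175 (BEC against intermediate) and 0.0960 to 0.209 (full against early). Replicates differed by more than sampling noise.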

Additional observations from a re-analysis of the deposited data

How the results depend on the processing

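Of the counts of called genes, 376 values under the alternatives stayed within 1.5 times the main value. The members called from intermediate to full ranged from 2 to 4 when 1 library was left out, with 2 without intermediate replicate 3, and the members called between BEC and full were 4 with no low-count filter. Of single-member values, 1067 kept direction and call, 28 gained a call, 15 lost one and 20 changed sign.

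Total counts alone changed the sign of Lgr4 (0.13 at the first step, 0.13 in full against early, 0.15 in BEC against early, 0.0176 in BEC against intermediate), Rnf43 (0.42 at the first step, 0.24 in full against early), Tcf7l1 (0.013 from intermediate to full), Axin2 (0.0271 in BEC against intermediate), and, among other pathway genes, of Bcl9l (0.80) in BEC against early and of the called differences of Fzd1 (0.0643), Fzd4 (0.0431), Lrp5 (0.22) and Tle1 (0.0652) at the first step and Fzd4 (0.30) and Glul (0.22) in full against early. With that scaling, which raised the share of all genes called higher from 28.7% to 59.4% at the first step and cut the share called lower from 25.7% to 10%, the called members at the first step were 5 higher and 3 lower in place of 2 and 4, from intermediate to full 4 and 1 in place of 2 and 2, in full against early 5 and 2 in place of 3 and 5, in BEC against early 5 and 4 in place of 4 and 5, and in BEC against intermediate 4 and 3 in place of 3 and 3. The other sign changes were in differences that did not pass the test with TMM scaling. Znrf3 at the first step was -0.0255 in DESeq2, -0.0377 with median-of-ratios factors, and -0.0478 to 0.0605 with 1 library left out. With 1 library left out, Znrf3 in BEC against full was -0.0434 to 0.13, Lgr4 in BEC against full -0.0576 to 0.0733 (and -0.0138 with no filter), Axin2 from intermediate to full -0.0191 to 0.43, Axin2 in BEC against intermediate -0.51 to 0.0285, and Bcl9l in BEC against early -0.17 to 0.0611. The cause of these changes was not tested.

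With the replicate block 6, 4 and 3 members were called at the 3 consecutive steps, against 57.2%, 45% and 25.3% of all genes, and the block gained Tbx3 in BEC against full (adjusted p = 0.0248). In the other comparisons the block gained Tcf7l2 in full against early (adjusted p = 0.0494) and Tcf7l1 in BEC against intermediate (0.0367). It changed no other call of a member. Tbx3 in BEC against full also passed in DESeq2 (0.0495), with no low-count filter (1.06e-05) and without intermediate replicate 1 (0.0375) or BEC replicate 3 (0.0405), and Tcf7l1 in BEC against intermediate with only the 6 libraries compared (0.0323) and without early replicate 1 (0.0292) or 2 (0.0267). In BEC against intermediate, Lgr5 was lost without replicate 1 or 2 of either group (adjusted p = 0.0535 to 0.0780) and Tcf7l2 without intermediate replicate 1 or 2 or BEC replicate 1 (0.0536 to 0.109). At counts near the floor, as for Wnt7b in early and intermediate and Lgr5 in BEC, depth limits the fold to its counting interval.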
